A study of Mus musculus with 6 samples.

Results

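The genes described here encode the collagens, laminins and nidogens of basement membranes: Col4a1, Col4a2, Col15a1, Col18a1, Lamb1, Lamb2, Lamc1, Nid1, Nid2 and Hspg2, the last of which encodes perlecan. They were taken by name, 10 of the 21983 gene symbols counted, and all 10 passed the filter on low counts. Whole-liver RNA was sequenced from 6 C57BL/6 mice, and every mouse had drunk thioacetamide (TAA), a compound that injures hepatocytes and scars the liver, at 400 mg/L for 16 weeks. In the Lrat-Cre; Prmt1f/f group (mice 49, 82 and 88, called knockout here) a Cre recombinase driven by Lrat acted on a floxed Prmt1 allele. The Prmt1f/f group (mice 42, 83 and 90, called control here) carried the floxed allele without Cre. The labels give an age of 10 weeks for all mice without saying when it applies, and they give no sex. Lrat marks hepatic stellate cells in liver, and these whole-liver counts do not show in which cells Prmt1 was lost. No group had Cre without the floxed allele or was free of TAA.

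A basement membrane is a thin sheet of matrix built from a network of type IV collagen and a network of laminin, which nidogens and the heparan sulfate proteoglycan perlecan link together. Collagens XV and XVIII lie in or next to the sheet, and their C-terminal ends can be cut off as endostatin-like fragments. The sinusoids of healthy liver lack a continuous basement membrane, while in fibrosis collagen IV and laminin accumulate in the space between endothelium and hepatocytes. Stellate cells and endothelial cells make much of this material, and hepatocytes are a known source of collagen XVIII.

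Libraries held between 13303884 and 16462278 counts. Prmt1, the targeted gene, lay between 24.7 and 35.8 CPM (counts scaled to a common library size) in knockout livers and between 38.9 and 49.8 CPM in control livers (adjusted p = 0.347, edgeR). Albumin, the defining hepatocyte product, stood between 55390 and 81550 CPM in the 6 livers. In whole liver, fewer cells of a type and less RNA per cell cannot be told apart, and this holds for every value below.

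Col4a1 and Col4a2, which encode the α1 and α2 chains of the common type IV collagen trimer, lie head to head on chromosome 8. Col4a1 runs from 11198423 to 11312826 on the minus strand and Col4a2 from 11312805 to 11449287 on the plus strand (GENCODE, GRCm38), so that their first exons share 22 bases. Their promoter windows (RefSeq, GRCm38.p6; 250 bases before to 50 after the annotated start) are shown because both genes start from this stretch and both had a negative fitted log2 fold change. Capitals mark the letters of a GC box (GGGCGG) or a CCAAT box (CCAAT), each searched on both strands, in lines that run 5′ to 3′ on the strand of the gene.
Col4a1, chr8:11312777-11313076, minus strand: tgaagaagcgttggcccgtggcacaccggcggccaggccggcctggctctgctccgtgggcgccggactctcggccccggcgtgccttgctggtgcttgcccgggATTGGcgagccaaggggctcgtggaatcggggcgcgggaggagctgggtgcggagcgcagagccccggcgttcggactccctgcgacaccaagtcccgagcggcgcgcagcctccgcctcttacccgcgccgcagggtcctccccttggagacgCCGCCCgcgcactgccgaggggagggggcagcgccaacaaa
Col4a2, chr8:11312555-11312854, plus strand: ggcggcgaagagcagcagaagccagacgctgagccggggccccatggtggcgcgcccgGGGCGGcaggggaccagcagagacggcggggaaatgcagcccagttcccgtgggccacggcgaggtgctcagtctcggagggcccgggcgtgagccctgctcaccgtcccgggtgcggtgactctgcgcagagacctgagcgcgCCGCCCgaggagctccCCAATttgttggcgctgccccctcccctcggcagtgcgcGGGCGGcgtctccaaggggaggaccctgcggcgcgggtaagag

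The windows overlap by 78 bases and together cover 522. A GC box at 11312812 lies in both, between the annotated starts, 10 bases into the Col4a1 transcript and 8 bases into the Col4a2 transcript. A CCAAT box lies at -145 from the Col4a1 start and another at -32 from the Col4a2 start. Both windows are rich in GC, at 74.0% and 73.7% against a median of 52.7% over 32851 promoter windows.

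Col18a1, which encodes the α1 chain of collagen XVIII, is known to be transcribed from separate promoters, the downstream of which is used in liver. It lies on chromosome 10 from 77052178 to 77166548 on the minus strand, and RefSeq gives it start sites 52825 bases apart. Both windows are shown because Col18a1 was the member whose level lay higher in knockout livers. The deposited counts are per gene, so the start sites were not measured apart.
Col18a1 upstream start, chr10:77166481-77166780, minus strand: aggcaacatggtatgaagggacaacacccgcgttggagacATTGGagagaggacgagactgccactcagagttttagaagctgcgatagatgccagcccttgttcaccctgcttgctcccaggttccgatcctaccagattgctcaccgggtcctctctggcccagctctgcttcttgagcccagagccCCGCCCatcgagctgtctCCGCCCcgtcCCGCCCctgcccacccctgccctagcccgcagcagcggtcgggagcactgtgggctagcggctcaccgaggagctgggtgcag
Col18a1 downstream start, chr10:77113656-77113955, minus strand: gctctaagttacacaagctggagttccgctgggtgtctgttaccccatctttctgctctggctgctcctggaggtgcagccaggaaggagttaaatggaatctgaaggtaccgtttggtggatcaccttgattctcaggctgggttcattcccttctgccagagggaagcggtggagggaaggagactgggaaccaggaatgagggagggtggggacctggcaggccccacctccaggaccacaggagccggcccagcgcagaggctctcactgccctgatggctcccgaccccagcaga

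The upstream window holds 3 GC boxes and a CCAAT box, and the downstream window holds neither motif. Of all promoter windows, 35.7% hold a GC box and 37.4% a CCAAT box. Among the 9 windows listed for 8 of the members, 6 hold a GC box and 5 a CCAAT box. None of the 9 holds TATAAA, found in 13.6% of all windows, or the AP-1 letters TGANTCA, found in 7.8%. Lamc1 and Nid2 have no window in the table.

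Between genotypes, 9 of the 10 members had a lower fitted level in knockout than in control livers and Col18a1 had a higher one. The median log2 fold change (knockout over control) was -0.36 for the members, against -0.02 for all 13153 genes tested, of which 52.7% had a negative value. No member passed edgeR's test at an adjusted p of 0.05, and neither did any other gene (0%). Members' adjusted p ran from 0.323 to 0.905. At an unadjusted p under 0.05 edgeR gave 5 of the 10, against 11.0% of all genes. Col4a1, Col4a2, Col15a1 and Lamb1 were lower, against 5.95% of all genes, and Col18a1 was higher, against 5.06%. All 3 knockout livers lay below all 3 controls for Col4a1, Col15a1 and Lamb1, as for 7.95% of all genes tested, and above them for Col18a1, as for 8.94%. Without control mouse 83 only 6 members were negative, and 2 were lower at an unadjusted p under 0.05 with none higher. Without knockout mouse 49, 7 were negative. Without knockout mouse 88 only 3 passed that level, all lower. The number over all genes fell too, from 1448 of 13153 to 865 of 13231 without mouse 83 and 997 of 13377 without mouse 88. DESeq2 called 0 members, with a lowest adjusted p of 0.0600, and 1.81% of all genes. limma-voom called 0 members. With a weight for each library, limma-voom called Col4a1, Col15a1 and Col18a1, the last higher, and 4.26% of all genes.

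**Figure D1:**
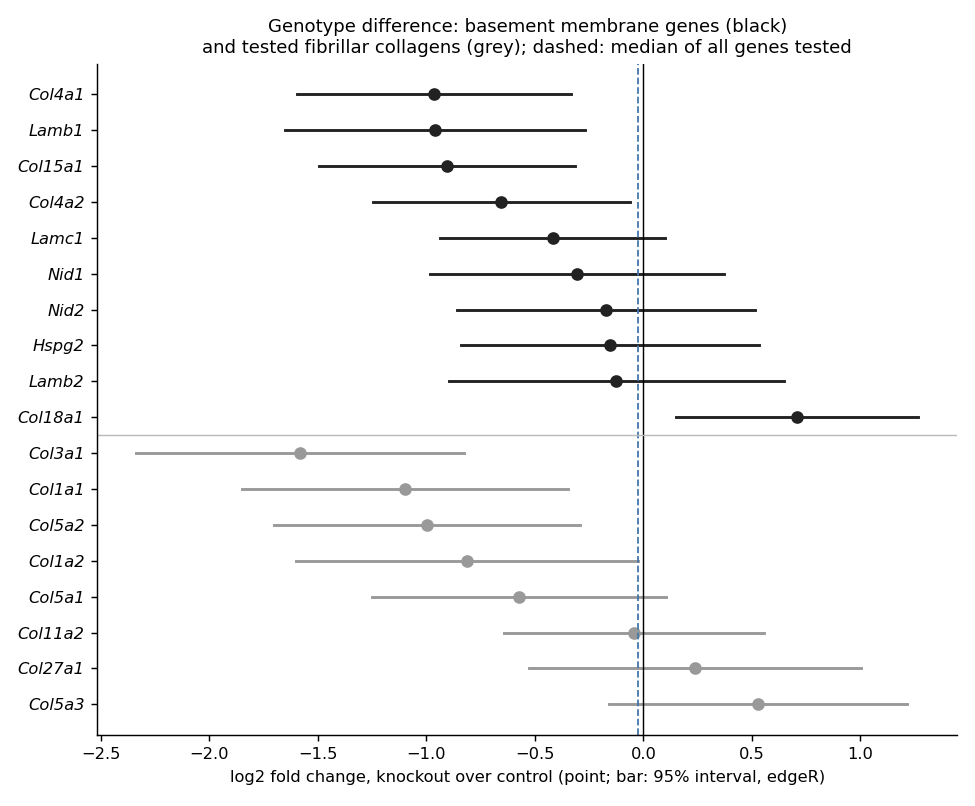
Log2 fold change of knockout over control with its 95% interval (edgeR) for the 10 basement membrane genes (black) and the 8 fibrillar collagens tested (grey); the dashed line is the median of all genes tested, -0.02. Col18a1 is the only black point right of 0, at 0.71, and the intervals of Col4a1, Lamb1, Col15a1 and Col4a2 lie wholly left of 0.

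Col4a1 was the member with the largest fitted difference. Control mice 42, 83 and 90 stood at 222, 192 and 109 CPM, and knockout mice 49, 82 and 88 at 79.7, 107 and 80.9 CPM. The groups did not overlap, but the gap between the lowest control and the highest knockout liver was only 1.88 CPM. That gap lay within counting error, with 95% Poisson intervals of 103 to 115 CPM in mouse 90 and 102 to 113 CPM in mouse 82. The control mean was 174 ± 58.4 CPM and that of knockout livers 89.3 ± 15.6 CPM (SD, n = 3), or 51.2% of it. On the log2 scale this was -0.97 (SE 0.28, 95% interval -1.60 to -0.33; adjusted p = 0.323, edgeR), and -1.25 without control mouse 90.

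Col4a2 had the same order of livers within the control group. Its values were 147, 137 and 80.8 CPM for mice 42, 83 and 90, and 62.0, 91.6 and 78.2 CPM for knockout mice 49, 82 and 88. Control mouse 90 lay below knockout mouse 82, so the groups overlapped. On the log2 scale, knockout over control was -0.65 (SE 0.26, 95% interval -1.25 to -0.06; adjusted p = 0.416, edgeR).

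**Figure D2:**
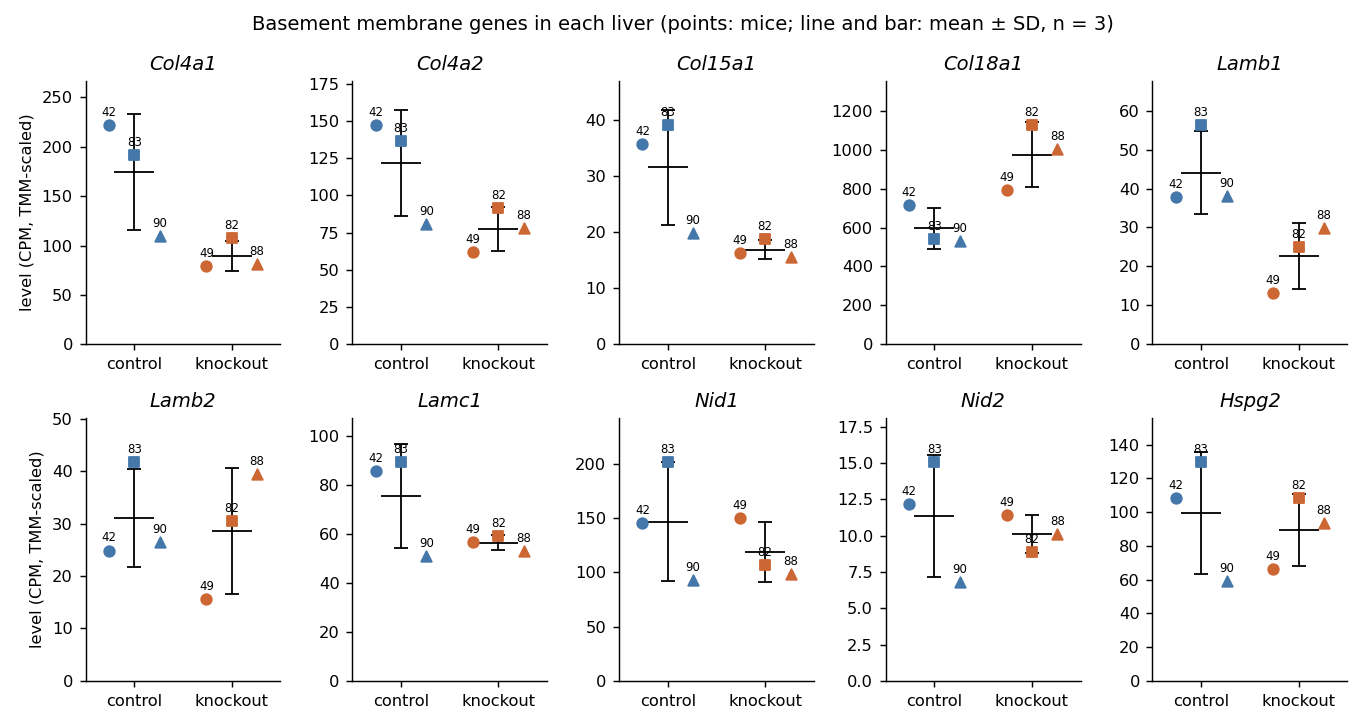
Level in CPM of each basement membrane gene in each liver, with the mean and SD of each group (n = 3); marker shapes only tell mice of a group apart. Every panel has its own axis from 0. Col4a1, Col15a1 and Lamb1 have all knockout points below all control points, and Col18a1 has all of them above, from 794 to 1128 CPM.

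Collagens XV and XVIII, the closest relatives of each other among collagens, had fitted values of opposite sign. Col15a1, on chromosome 4 from 47208161 to 47313167, stood at 35.7, 39.1 and 19.9 CPM in control mice 42, 83 and 90. In knockout mice 49, 82 and 88 it stood at 16.2, 18.8 and 15.6 CPM. The knockout livers were close together and all below the controls, with a gap of 1.07 CPM to mouse 90. As for Col4a1, that gap lay within counting error. The 95% Poisson intervals were 17.46 to 22.54 CPM in control mouse 90 and 16.55 to 21.29 CPM in knockout mouse 82. On the log2 scale, knockout over control was -0.90 (SE 0.26, 95% interval -1.50 to -0.31; adjusted p = 0.323, edgeR).

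Col18a1 was by far the most abundant member, ranking 128 of 13153 genes tested by mean CPM. It stood at 718, 542 and 531 CPM in control mice 42, 83 and 90. In knockout mice 49, 82 and 88 the values were 794, 1128 and 1002 CPM. All knockout livers were above all controls, with a gap of 76.3 CPM between mouse 49 and mouse 42. Group means were 597 ± 105 CPM and 975 ± 169 CPM (SD, n = 3), 163% of the control level. On the log2 scale, knockout over control was 0.71 (SE 0.25, 95% interval 0.15 to 1.27; adjusted p = 0.368, edgeR).

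Laminins are trimers of an α, a β and a γ chain. Lamb1 and Lamb2 encode alternative β chains, and Lamc1 encodes the γ chain that most laminins share. Lamb1, on chromosome 12 from 31265234 to 31329644, stood at 37.7, 56.4 and 38.2 CPM in control mice 42, 83 and 90, and at 13.3, 25.03 and 29.8 CPM in knockout mice 49, 82 and 88. The groups did not overlap and lay 7.90 CPM apart. The knockout mean of 22.7 ± 8.52 CPM was 51.5% of the control mean of 44.1 ± 10.6 CPM (SD, n = 3). On the log2 scale, knockout over control was -0.96 (SE 0.30, 95% interval -1.65 to -0.27; adjusted p = 0.347, edgeR).

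Lamb2 overlapped fully between genotypes. Controls stood at 24.9, 41.8 and 26.5 CPM and knockout livers at 15.7, 30.5 and 39.5 CPM, in the same order of mice. Its log2 fold change of -0.12 had a 95% interval from -0.89 to 0.65, and the sign turned without control mouse 83 (0.15) or without knockout mouse 49 (0.17). Lamc1 stood at 85.7, 89.7 and 51.0 CPM in control livers and at 56.9, 59.4 and 53.3 CPM in knockout livers. Knockout livers lay close together, between control mouse 90 and the other controls. The log2 fold change of Lamc1 was -0.42 (95% interval -0.94 to 0.10; adjusted p = 0.520, edgeR) and ran from -0.68 without mouse 90 to -0.28 without mouse 83.

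The α chains, which carry most of the binding sites for cell receptors, did not share a direction. Lama1, the α chain of the first laminin described, stood at 9.07, 9.81 and 11.8 CPM in control livers and at 3.09, 4.42 and 4.32 CPM in those of knockout mice, a difference of -1.37 on the log2 scale (SE 0.26; adjusted p = 0.227, edgeR). Its groups did not overlap. Lama4 and Lama5, the chains of vascular laminins, had log2 fold changes of -0.37 and -0.38 with overlapping groups. Lama2 stood at 0.11 and Lama3 at 0.42, also overlapping. Of further β and γ chains, Lamb3 was at -0.04 and Lamc3 at 0.47, both with overlapping groups.

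Nidogens bind both laminin and collagen IV. Nid1 stood at 145, 202 and 92.8 CPM in control mice 42, 83 and 90 and at 150, 107 and 98.3 CPM in knockout mice 49, 82 and 88. The groups overlapped, and knockout mouse 49 exceeded control mouse 42. Its log2 fold change was -0.31 (95% interval -0.98 to 0.37), and -0.005 without control mouse 83. Nid2 stood at 12.2, 15.1 and 6.79 CPM in controls and 11.4, 8.84 and 10.1 CPM in knockout livers, also overlapping. The fitted log2 difference was -0.17 (95% interval -0.86 to 0.51), and 0.09 without mouse 83. The Nid2 value is uncertain because 8.45% of its exon bases are also exon of Rtraf on the opposite strand, and the strand setting of the counting is not given.

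Perlecan carries heparan sulfate chains that hold growth factors. Hspg2 stood at 108, 130 and 59.5 CPM in control livers and at 66.3, 108 and 93.4 CPM in knockout livers, with overlapping groups. Its log2 fold change of -0.15 had a 95% interval from -0.84 to 0.53. The sign turned without control mouse 83 (0.09) or knockout mouse 49 (0.025).

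Ratios between members within a liver do not depend on how the library is scaled, and 7 were compared. For each, a two-sided exact permutation test over the 20 assignments of 3 mice against 3 was run, whose smallest possible p is 0.1. With adjustment over the 7 ratios the lowest value was 0.14, so none passed 0.05. The ratios are made from the same counts as the fold changes above, so they largely restate them and are not separate evidence.

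The ratio of the β chains did not overlap between genotypes and varied little within them. Lamb2 counts per Lamb1 count were 0.659, 0.742 and 0.694 in control mice 42, 83 and 90 and 1.18, 1.22 and 1.32 in knockout mice 49, 82 and 88. Mean log2 ratios were -0.52 ± 0.09 and 0.31 ± 0.08 (SD, n = 3), a difference of 0.83 (exact p = 0.1, adjusted 0.14). In every control liver Lamb1 had more counts than Lamb2, and in every knockout liver fewer. Per length of exon Lamb2 exceeded Lamb1 in all 6 livers, by 1.07 to 1.21 times in controls and by 1.93 to 2.16 times in knockout livers. That order turned in controls when the longest transcript was used as length, with Lamb1 at 7.62 and Lamb2 at 5.52 CPM per kilobase, but not in knockout livers (3.93 and 5.08), so the order of levels in controls rests on the length chosen.

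Counts of Col4a1 per Col4a2 count were 1.51, 1.40 and 1.35 in control livers and 1.29, 1.17 and 1.03 in knockout livers. The groups did not overlap, with a log2 difference of -0.29 (exact p = 0.1, adjusted 0.14). Hspg2 per Col4a1 was 0.488, 0.678 and 0.545 in controls and 0.832, 1.01 and 1.15 in knockout livers, a log2 difference of 0.81 with the same p. Col18a1 per Col4a1 ran from 2.83 to 4.87 in controls and from 9.96 to 12.4 in knockout livers. Col18a1 per Col15a1 ran from 13.8 to 26.7 and from 48.9 to 64.1. Their log2 differences were 1.62 and 1.55, each with an exact p of 0.1 and an adjusted p of 0.14. The ratios of Lamb1 to Lamc1 (difference -0.64, exact p = 0.2) and of Nid1 to Nid2 (-0.16, exact p = 0.4) overlapped between genotypes. Without knockout mouse 49 the first was -0.28, and without knockout mouse 88 the second was -0.04.

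**Figure D3:**
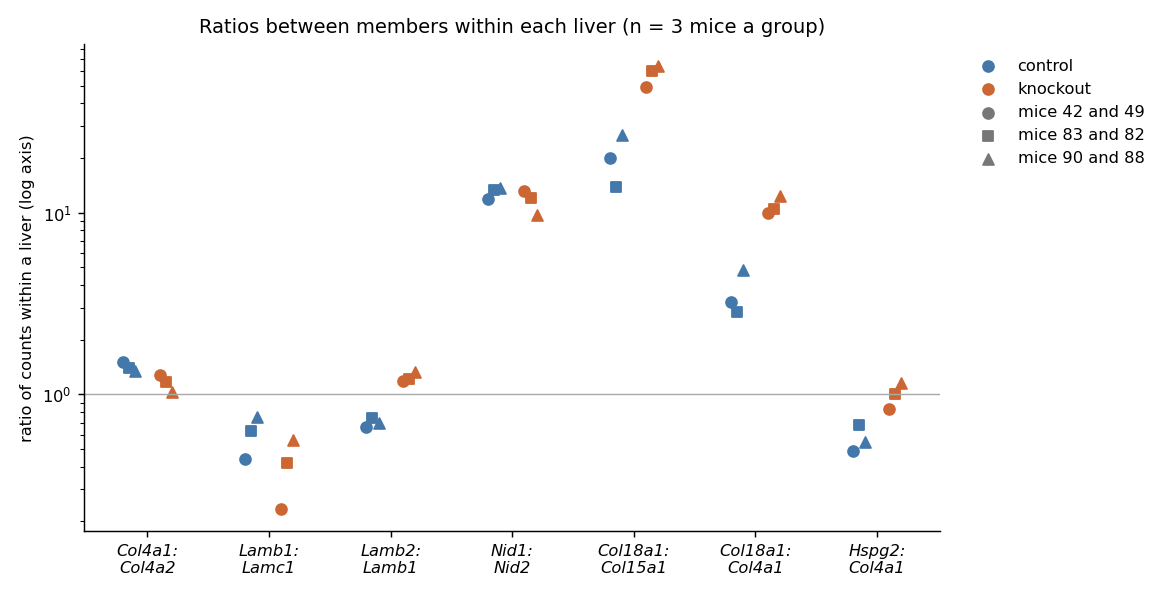
Ratio of counts of a pair of members within each liver, on a log axis, for control (blue) and knockout (orange) mice; shapes only tell mice apart and grey marks a ratio of 1. Lamb2:Lamb1 lies below 1 in all control livers and above 1 in all knockout livers, while Lamb1:Lamc1 and Nid1:Nid2 overlap.

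Compared per kilobase of exon, Col18a1 had the highest level of the 10 genes in every liver. In control livers it stood at 85.0 ± 14.9 CPM per kilobase (SD, n = 3), followed by Col4a1 at 23.4 ± 7.83, Nid1 at 21.1 ± 7.87 and Col4a2 at 18.4 ± 5.39. The means of these last genes lay closer than their SDs, but Col4a1 exceeded Col4a2 in every control liver. Nid1 lay below both in control mouse 42 and above both in control mouse 83. Lamc1 stood at 9.12 ± 2.57, Hspg2 at 6.94 ± 2.52, Lamb2 at 5.11 ± 1.54, Col15a1 at 4.97 ± 1.62 and Lamb1 at 4.45 ± 1.07. The means of neighbours again lay closer than their SDs, though Lamc1 exceeded Hspg2 in every control liver. The order of genes was not tested. Nid2 was lowest at 2.20 ± 0.81. In knockout livers Nid1 (17.1 ± 4.0) came before Col4a1 (12.0 ± 2.09) and Col4a2 (11.7 ± 2.24), and Lamb1 (2.29 ± 0.86) and Col15a1 (2.66 ± 0.27) stood beside Nid2 (1.95 ± 0.25). The place of Lamb1 depends on the length used: with the longest transcript it stood at 7.62 in controls, above Hspg2 (6.997), and at 3.93 in knockout livers, above Nid2 (2.07).

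The total of the 10 genes per kilobase overlapped between genotypes, at 208.9, 194.1 and 138.9 in control mice 42, 83 and 90 and 174.9, 231.3 and 206.4 in knockout mice 49, 82 and 88. Its makeup differed. Col18a1 made up 48.9%, 39.7% and 54.5% of that total in controls and 64.6%, 69.5% and 69.1% in knockout livers. Col4a1 and Col4a2 together were at 52.0, 46.3 and 26.8 CPM per kilobase in controls and at 20.1, 28.2 and 22.6 in knockout livers, overlapping through mouse 90. Without Col18a1, the other 9 genes summed to 107, 117 and 63.2 in controls and 61.9, 70.6 and 63.7 in knockout livers.

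**Figure D4:**
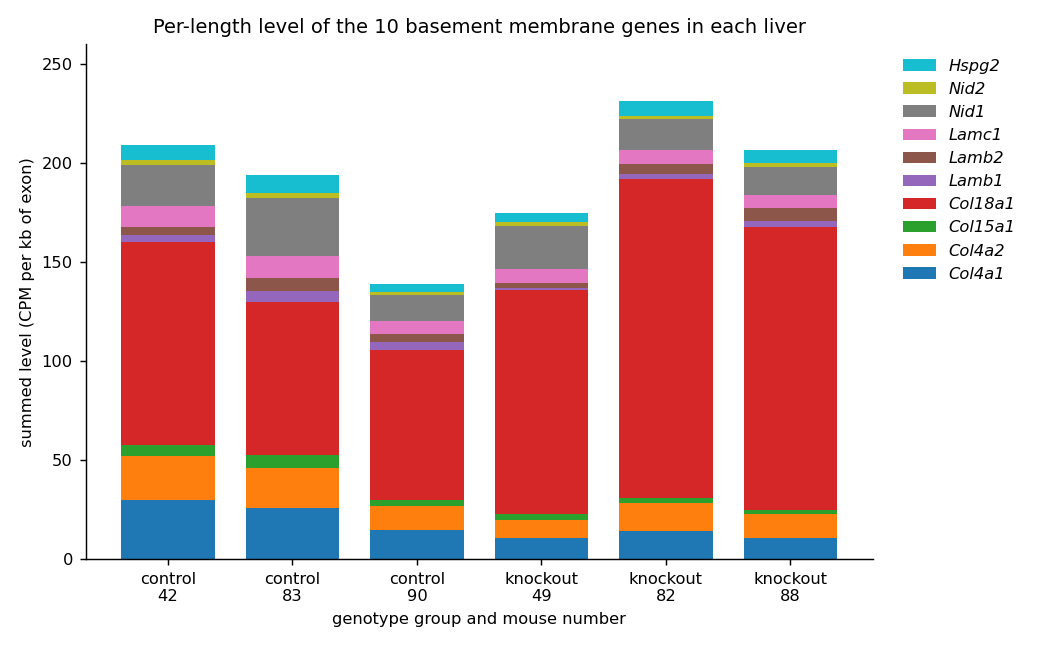
Level per kilobase of exon (CPM per kb) of the 10 basement membrane genes stacked for each liver, by group and mouse number. The Col18a1 segment is 64.6% to 69.5% of the bar in knockout livers and 39.7% to 54.5% in control livers.

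Pearson's r of log2 CPM between members is given as a description over 6 livers, which share both the genotype and each library's make-up. It was over 0.5 in 28 of the 36 pairs without Col18a1, with a median of 0.64, and ran from -0.02 between Lamb2 and Nid1 to 0.98. It was 0.97 between Col4a1 and Col4a2, 0.98 between Col4a1 and Col15a1, 0.95 between Lamc1 and Col15a1, and 0.91 between Nid1 and Nid2. Col18a1 had a negative r with all members other than Hspg2 (0.18). Control mouse 90 was the lowest control in 8 of 10 members, and control mouse 83 the highest in 7. Knockout mouse 49 was the lowest knockout liver in 6 members but the highest in Nid1 and Nid2.

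Of 8863 genes with a mean of at least 10 CPM and outside the list, the 5 with the pattern most like Col4a1 were Reln (r = 0.99 over 6 livers), Fam114a1, Dip2a, Mcam and Mtr (r from 0.94 to 0.95). Reln, a secreted glycoprotein and marker of stellate cells, stood at 101, 85.1 and 53.5 CPM in controls and 38.0, 42.8 and 38.3 CPM in knockout livers. Those most like Col18a1 were Bhmt2, Hc, Slco1b2, Mut and Pttg1ip, each with an r of at least 0.99. Bhmt2 is an enzyme of methionine metabolism, Hc encodes complement C5 and Slco1b2 is an uptake transporter of hepatocytes. Picked as the highest of 8863 genes over 6 livers, such r values are high in part through that choice. The cells that expressed Col4a1, Col18a1 and the genes most like them were not measured. Slco1b2 stood at 511, 268 and 277 CPM in controls and at 612, 1049 and 818 CPM in knockout livers.

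Of 31 other basement membrane genes listed, 28 were tested, 12 with a negative and 16 with a positive log2 fold change and a median of 0.07. Here edgeR called 0 at an adjusted p of 0.05, and 4 lower and 2 higher at an unadjusted p under 0.05, while DESeq2 called Lama1 and Sparc, both lower. Sparc, which binds collagen IV, stood at 289, 326 and 283 CPM in control livers and at 112, 175 and 135 CPM in those of knockout mice, -1.09 on the log2 scale (SE 0.22; adjusted p = 0.227, edgeR). Frem1, of the epithelial basement membrane, was at -1.90 (SE 0.61) with overlapping groups. Its levels were low, at 4.13, 5.54 and 1.39 CPM in control livers and 0.64, 0.60 and 1.73 CPM in knockout livers. Agrn, the proteoglycan agrin, was at -0.18 and overlapped as Hspg2 did.

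All 17 listed receptors of basement membranes were tested, 12 negative and 5 positive, with a median of -0.07, and edgeR and DESeq2 called 0 of them. At an unadjusted p under 0.05 edgeR gave 1, Itga7, a laminin-binding integrin chain, at 7.62 ± 1.76 against 12.6 ± 2.37 CPM (SD, n = 3; log2 fold change 0.72). Sdc4, a cell-surface proteoglycan, stood at 285 ± 58.8 against 399.5 ± 23.4 CPM (0.49), and Itga6, a laminin-binding integrin chain, at -1.06 with overlapping groups, and at -0.17 without control mouse 83. Itgb1, the β chain that most of these integrins share, was at -0.06 (SE 0.20).

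Of 19 genes of collagen and proteoglycan assembly, 8 were negative and 11 positive, with a median of 0.09. None passed in edgeR, 3 were lower and 1 higher at an unadjusted p under 0.05, and DESeq2 called Loxl2 and Serpinh1, both lower. Loxl2, which cross-links collagen IV, stood at 20.7, 25.7 and 21.3 CPM in controls and 7.73, 11.8 and 10.4 CPM in knockout livers (-1.18, SE 0.22; adjusted p = 0.227, edgeR). Serpinh1, the collagen chaperone HSP47, was at -1.01 and the lysyl hydroxylase Plod2 at -1.05, both without overlap. Of 18 genes of matrix breakdown, 12 were negative and 6 positive, with a median of -0.40. For these edgeR and DESeq2 called 0, and 5 were lower at an unadjusted p under 0.05. Mmp12, an elastase of macrophages, stood at -0.80, and the proteases Adamts1 and Adamts5 at -0.71 and -0.99.

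Fibrillar collagens form the bulk of scar collagen. Of 11 listed, 8 were tested, 6 negative and 2 positive, with a median of -0.69. None passed in edgeR, 4 were lower at an unadjusted p under 0.05, and DESeq2 called Col3a1. The log2 fold changes were -1.58 for Col3a1, -1.10 for Col1a1 and -0.996 for Col5a2, each without overlap between groups. Whether basement membrane genes differed less than these was not tested.

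The summed levels of the stellate, myofibroblast, and portal fibroblast and mesothelial marker lists did not overlap between genotypes, and their part in the members' values was not tested. For the portal fibroblast and mesothelial list this rested on Eln, which held 101 of the 134 CPM in control mouse 42. Without Eln the sums of that list overlap. No gene of any marker list passed in edgeR, and no listed marker was at 0 in every liver. Of 12 stellate cell markers, 11 were negative (median -0.51), and their summed level ran from 491 to 512 CPM in controls and from 237 to 374 CPM in knockout livers; DESeq2 called 3. All 9 myofibroblast markers tested were negative (median -1.41), with sums from 173 to 204 CPM and from 57.7 to 135 CPM, and DESeq2 called 6. DESeq2 also called 1 each of the portal fibroblast and mesothelial, hepatocyte and leukocyte lists, and 0 of the other marker lists. Lrat itself stood at 92.1, 100 and 67.3 CPM in control livers and at 26.1, 50.8 and 46.8 CPM in knockout livers, and Ecm1 at -0.38 with overlapping groups. Tagln, a contractile protein, was at -1.04, and Pdgfra, a receptor of fibroblasts, at -0.19 with overlap, and at 0.22 without knockout mouse 49. Without control mouse 90 Ecm1 was at -0.04.

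The sums of both endothelial lists overlapped between genotypes. The 14 vascular endothelial genes split evenly by sign (median -0.02) with sums from 489 to 589 CPM in controls and from 467 to 641 CPM in knockout livers. The 11 sinusoidal genes had a median of -0.22 and sums from 485 to 704 CPM against 400 to 610 CPM. Ptprb and Eng, abundant endothelial genes, were at 0.48 and -0.06. Stab1 and Clec4g of the sinusoid were at -0.25 and -0.16. Without control mouse 90 Clec4g was at 0.45, and without knockout mouse 49 Eng was at 0.12.

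Of 10 bile duct markers tested, 9 were negative (median -0.82), with sums from 565 to 1375 CPM in controls and from 313 to 791 CPM in knockout livers. Spp1 (osteopontin) was at -0.97 and Epcam at -0.65, both with overlap. Portal fibroblast and mesothelial genes had 7 of 8 negative (median -0.62), sums from 61.2 to 134 CPM in controls and from 26.3 to 48.5 CPM in knockout livers. Eln (elastin) was at -1.93 without overlap, with control mouse 42 at 101 CPM and the other controls at 32.7 and 24.6, and at -1.05 without that mouse. The ectonucleotidase gene Entpd2 was at -0.57, and at -0.28 without control mouse 83, with overlap. The 4 smooth muscle genes tested were all negative (median -0.17), with sums from 26.8 to 30.6 CPM and from 18.4 to 30.1 CPM, and Smtn and Myh11 at -0.35 and -0.16, the latter at 0.10 without knockout mouse 49. Leukocyte genes had 8 of 10 negative (median -0.66) and sums from 197 to 481 CPM against 251 to 329 CPM, with Csf1r at -0.33 and the Kupffer cell lectin Clec4f at 0.37, which was 1.30 without control mouse 90 and -0.09 without control mouse 83. Hepatocyte genes had 7 of 9 positive (median 0.36), with overlapping sums from 70820 to 104800 CPM in controls and from 86690 to 101100 CPM in knockout livers. Their part in the Col18a1 value was not tested. Alb was at 0.10 with overlap. Apob, an apolipoprotein, stood at 6867, 4964 and 3318 CPM in controls and higher in every knockout liver, at 7261, 7596 and 6998 CPM.

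**Figure D5:**
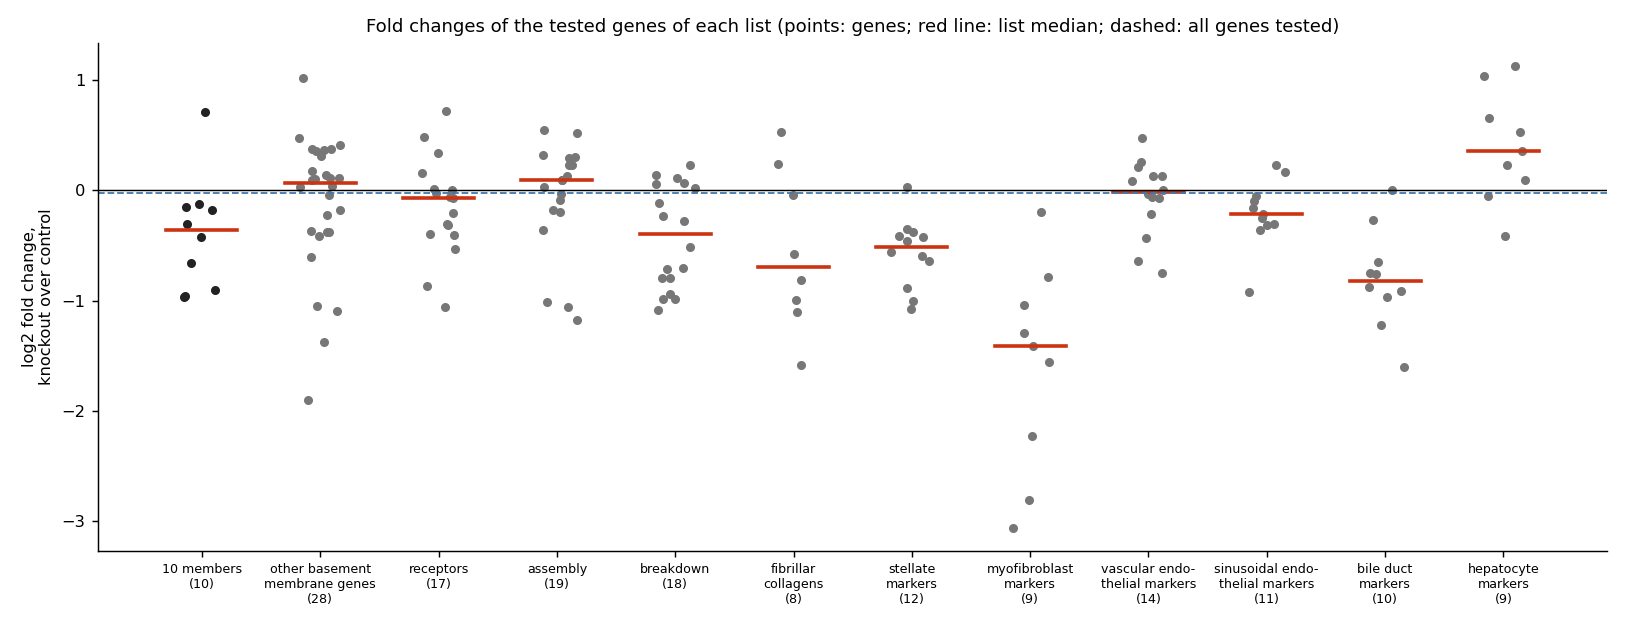
Log2 fold change of every tested gene of each list shown (points), with the list median (red) and the median of all genes tested (dashed, -0.02). The number of genes is under each name. The portal fibroblast and mesothelial, smooth muscle and leukocyte lists are not drawn. The members' median is -0.36, between those of the fibrillar collagens (-0.69) and of the other basement membrane genes (0.07).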

How the data were processed

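The authors deposited raw counts per gene symbol, 1 column per mouse, for 21983 symbols. Per the submitters' processing notes, the tools were STAR, HTSeq, Trimmomatic and FastQC (no versions) and the build was mm10. Neither the annotation nor the strand setting is given in the sources used here. Columns were matched by mouse number; the titles describe separate mice, so p-values measure the spread between mice.

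After filterByExpr and TMM scaling, genotype was tested in edgeR 4.0.16 (R 4.3.3; glmQLFit, glmQLFTest) over 6 mice without covariates, with Benjamini-Hochberg adjustment over 13153 genes. The total degrees of freedom, residual plus prior, were 8.75. CPM is counts over the TMM-scaled library size; levels per kilobase use the union of annotated exons in GENCODE M21 (GRCm38). Alternatives used DESeq2 1.42.0, limma 3.58.1, other scalings and filters, a robust fit, a looser threshold, a term for mouse number, other lengths and each mouse left out. 0 columns belonged to no sample. The test was checked on simulated counts. Poisson intervals cover counting error only.

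No 50-base word of a member's transcripts occurred in the same direction in another gene, except 1.83% of those of Nid1, shared with Gm2399. Words of the opposite strand were not searched. Exons of Nid2 and Nid1 share 437 and 143 bases with Rtraf and Gm48682 on that strand. The members, gene lists and alternatives were chosen with earlier results of these data known. Beyond the members, the genes named are the 3 smallest p of each pathway list, the 2 most abundant of each marker list and the 5 most like Col4a1 and Col18a1. Other laminin chains, Agrn and Itgb1 were named after their values were seen, as were the genes of the closing section. The hepatocyte list is given for 9 of 10 genes; Tf is not analysed here.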

Additional observations from a re-analysis of the deposited data

How the results depend on the processing

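The number of genes called over the whole table was 0 with edgeR, RLE size factors, total counts only, a 1 CPM filter, limma-voom, a robust fit and the 20 most abundant genes left out. It was 4 without the low-count filter, 3 at an adjusted p of 0.10, 6 when mice numbered over 80 were set apart from 42 and 49 by a term in the model, a split that no label calls a batch, 238 with DESeq2 and 560 with limma-voom with library weights. Leaving out each mouse gave 0 to 13, the highest without knockout mouse 49. Members called were 3 with library weights and 0 under every other alternative run. DESeq2 called 2 of the other basement membrane genes, 2 of assembly and 1 fibrillar collagen, and library weights called 3, 2 and 1 of these and 1 of breakdown. With library weights Prmt1 was at -0.74 (adjusted p = 0.0384). The cause of these differences was not tested. Total counts only moved the median log2 fold change of all genes from -0.02 to -0.17, and the 10 members kept their signs. Without each mouse in turn, Lamb2 ran from -0.47 to 0.17, Nid2 from -0.48 to 0.087 and Hspg2 from -0.46 to 0.089, while Col4a1 ran from -1.25 to -0.75, Lamb1 from -1.24 to -0.68, Col15a1 from -1.19 to -0.72 and Col18a1 from 0.57 to 0.86. The members whose groups did not overlap were the same 4 under the 3 scalings. With the longest transcript as length, Col18a1 stood at 107 and Lamb1 at 7.62 CPM per kilobase in controls, against 85.0 and 4.45. No paired analysis was possible because the mouse numbers are not shared between genotypes. Counts of the members ran from 83 (Nid2) to 15052 (Col18a1) per liver, and n = 3 a group limits the precision.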

Other observations

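Some basement membrane genes spread more among knockout livers than between genotypes. Col4a3 and Col4a4, whose chains form a network with that of Col4a5, stood at 2.51 and 2.45 CPM in knockout mouse 49, at 7.49 and 7.94 CPM in mouse 82 and at 12.6 and 15.2 CPM in mouse 88. In control mice 42, 83 and 90 Col4a3 stood at 3.67, 10.2 and 3.60 CPM and Col4a4 at 5.53, 11.7 and 3.11 CPM. The laminin γ3 chain gene Lamc3 had the same order, with 19.2, 47.7 and 64.9 CPM in knockout mice 49, 82 and 88 and 22.7, 48.8 and 23.0 CPM in controls. So did Ntn1, a laminin-related secreted guidance protein, with 21.3, 42.3 and 70.3 CPM in knockout livers and 32.5, 43.3 and 27.2 CPM in controls. Pdgfra, a receptor of fibroblasts and stellate cells, stood at 18.8, 56.1 and 89.6 CPM in knockout livers and at 51.9, 85.4 and 50.5 CPM in controls. Col4a5 stood at 25.9, 44.5 and 19.1 CPM in controls and at 6.25, 14.6 and 22.7 CPM in knockout mice 49, 82 and 88, with a log2 fold change of -1.05 (adjusted p = 0.453, edgeR), against 0.36 for Col4a3 and 0.32 for Col4a4. These genes were picked for this spread after their values were seen, Col4a5 as the partner chain, and the groups overlap for each.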
